A study of Homo sapiens with 18 samples.

Results

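The accessibility of DNA, gene by gene, was compared between human embryonic kidney cells (HEK293T) that made both fusion proteins of the t(4;11) translocation and HEK293T cells that made only one of them, at the end of the induction. The members were the 6 day 3 libraries, of 18 in the series, whose labels name these groups. Co-expression cells carried MLL-AF4 from a constitutive vector and AF4-MLL from a doxycycline-inducible vector, while MLL-AF4 cells carried MLL-AF4 from a doxycycline-inducible vector. Both groups received doxycycline at 1 µg/ml for 48 h and had 3 replicates each. According to the study's methods, the constitutive line was selected with puromycin and grown for several weeks before AF4-MLL was transfected transiently. The comparison therefore changes the fusion that is added, the vector and duration of MLL-AF4 and the history of the line at once, and these cannot be told apart here. No untransfected or mock library is among those labelled, so every value is relative to the other group. AF4-MLL cells of day 3, with inducible AF4-MLL alone, and the day 28 libraries of co-expression and MLL-AF4 cells are given beside the results where they bear on them.

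MLL, encoded by KMT2A, is a histone methyltransferase that keeps genes active through methylation of lysine 4 of histone H3, and AF4, encoded by AFF1, is a scaffold of the super elongation complex, which releases paused RNA polymerase II. The translocation joins the DNA-binding front of MLL to the back of AF4 (MLL-AF4) and the front of AF4 to the back of MLL, with its methyltransferase domain (AF4-MLL). ATAC-seq uses a transposase that inserts sequencing adapters into open DNA, so a gene's count is the number of sequenced fragments assigned to it. In such bulk libraries, fewer cells with an open gene, less opening per cell and fewer copies of the DNA cannot be told apart.

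The co-expression libraries held 930067 to 1186209 counts and the MLL-AF4 libraries 648466 to 715327, of which 591071 to 662727 and 352673 to 398640 fell on nuclear genes. Mitochondrial genes took 39.4% ± 5.94 (SD, n = 3) of the counts in co-expression cells and 44.0% ± 1.83 in MLL-AF4 cells, a difference that did not exceed the spread between replicates (two-sided exact permutation p = 0.2, smallest possible 0.1). Replicate 3 of the co-expression cells had the lowest share (32.8%), and without it the difference shrank from −4.54 to −1.20 percentage points. Marker genes of the kidney and of other lineages were summed to see which cells the libraries hold, and the groups overlapped in every sum. The summed level of 12 kidney development genes ran from 180 to 217 CPM (counts scaled to a common library size, with TMM factors) in co-expression libraries and from 191 to 213 CPM in MLL-AF4 libraries. Sums over 10 B cell genes ran from 63.5 to 75.3 and 68.1 to 77.4 CPM, over 9 T cell genes from 40.7 to 50.7 and 44.4 to 50.2 CPM, over 9 myeloid genes from 53.3 to 61.2 and 54.6 to 61.3 CPM, and over 8 neuronal genes from 97.0 to 111 and 88.8 to 116 CPM. In none of these 5 lists was a gene at 0 in all 6 libraries. The 5 lists had 0 called members in edgeR. Of their members, 1 B cell and 1 neuronal gene had an unadjusted edgeR p-value under 0.05, beside 14.5% of all genes tested.

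Across 17660 genes tested, 319 (1.81%) were called at an edgeR adjusted p-value under 0.05, 159 higher (0.900%) and 160 lower (0.906%) in co-expression cells. Their log2 differences had a median of 0.93 among the higher and −0.97 among the lower genes, and 64 and 75 of them differed by more than 1 on the log2 scale. All 3 co-expression libraries lay above or below all 3 MLL-AF4 libraries for 155 of the higher and 151 of the lower calls, against 9.94% higher and 9.09% lower (19.0% together) of all genes tested. Protein-coding genes made up 131 higher and 124 lower calls and long non-coding RNA (lncRNA) genes 11 and 8, while 13 and 20 calls had no RefSeq match. The count fell to 180 and 200 without replicate 2 or 3 of the co-expression cells, and to 113, 127 and 157 without replicate 1, 2 or 3 of the MLL-AF4 cells. With library size as the only scaling, which moved the median of all genes to 0.13 on the log2 scale, the calls split into 193 higher and 38 lower, so the directions given here are relative to the TMM scaling.

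**Figure D1:**
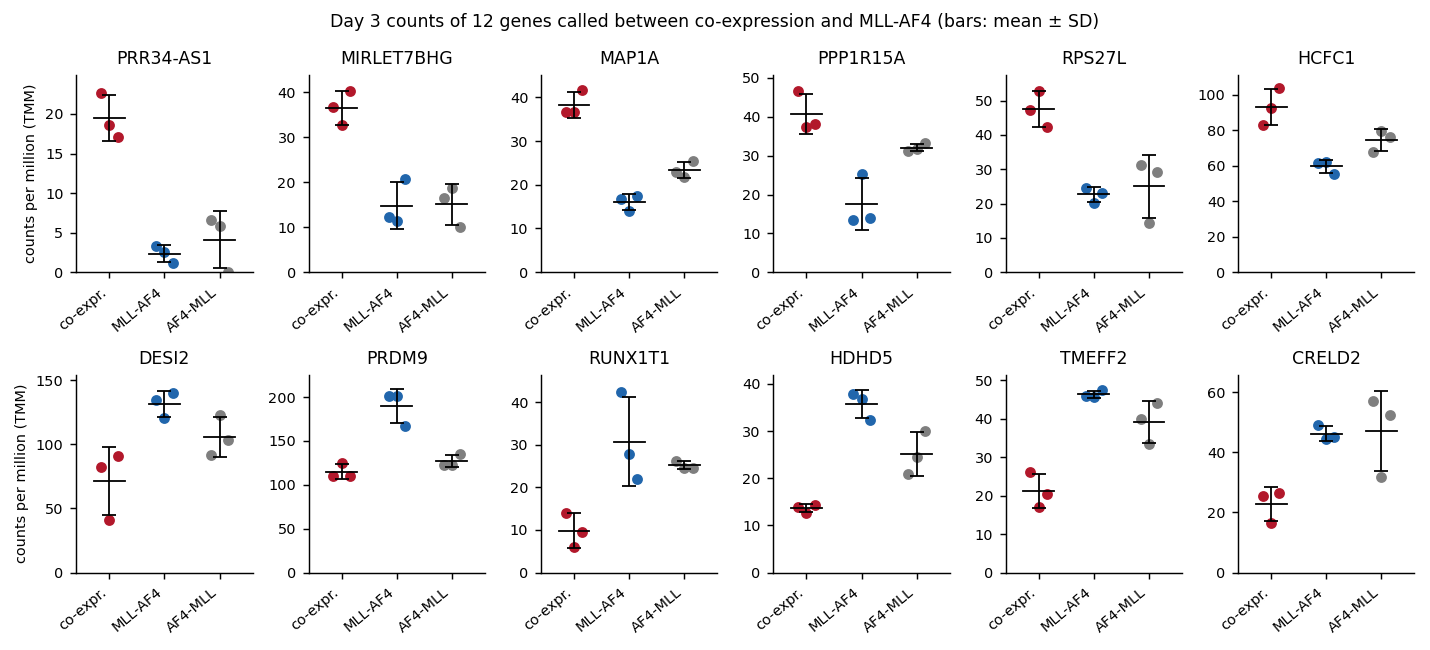
Normalised counts of 12 genes called between the groups, in CPM on TMM-scaled library sizes (linear axes from 0), for co-expression, MLL-AF4 and AF4-MLL cells on day 3. Points are libraries and bars the mean ± SD (n = 3); in the upper row the co-expression points lie above the MLL-AF4 points and in the lower row below them, with PRR34-AS1 at 19.5 against 2.35 and PRDM9 at 115 against 190 on average.

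The genes from which the constructs were cloned were looked at first, because reads of construct DNA fall under the same gene names as the chromosomal copies. KMT2A had 71, 72 and 84 counts in co-expression libraries and 36, 31 and 24 in MLL-AF4 libraries, or 52.8 ± 5.09 against 35.7 ± 6.94 CPM. The groups did not overlap, yet the log2 difference of 0.56 (SE 0.19) did not pass the test (edgeR adjusted p = 0.0876). AF4-MLL cells had 96.5 ± 12.6 CPM. The AF4-MLL construct, which co-expression cells received too, holds the longer 3′ part of MLL, and why the levels differ was not tested. AFF1 had 82, 63 and 83 counts against 50, 56 and 51, which is 52.8 ± 5.12 against 61.9 ± 8.05 CPM with overlapping groups (log2 difference −0.22, SE 0.16, edgeR adjusted p = 0.565). MIF, a secreted inflammatory cytokine, had 60.8 ± 9.11 against 49.7 ± 7.50 CPM, also with overlapping groups (log2 difference 0.29, SE 0.17, edgeR adjusted p = 0.413).

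Among the 12 leading genes called higher in co-expression cells were a pair of lncRNA genes close together near the end of chromosome 22. One is MIRLET7BHG (chr22:46085997-46113928, GRCh38, plus strand), the host gene of the let-7a-3 and let-7b microRNAs, which repress growth-promoting messenger RNAs and are kept low in many embryonic and tumour cells. The mature sequences of its let-7 hairpins (RefSeq, GRCh38.p14) are given to show which microRNAs the gene carries, 5′ to 3′ with the seed (bases 2 to 8) in capitals.
let-7a-5p: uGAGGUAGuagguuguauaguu
let-7b-5p: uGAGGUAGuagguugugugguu
let-7a-3p: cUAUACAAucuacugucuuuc
let-7b-3p: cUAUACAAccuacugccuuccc
Both 5p strands share the let-7 seed, which 11 mature microRNAs of the table have, and both 3p strands share a second one. The same host gene also holds miR-3619 and miR-4763, which have other seeds.

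MIRLET7BHG had 55, 44 and 59 counts in the co-expression libraries and 11, 9 and 18 in the MLL-AF4 libraries. The groups were far apart, at 36.6 ± 3.74 against 14.8 ± 5.19 CPM, and AF4-MLL cells (15.1 ± 4.55 CPM) lay with the MLL-AF4 cells. Its log2 difference was 1.29 (SE 0.25, edgeR adjusted p = 0.00038), and on day 28 it was 1.44 (SE 0.23, edgeR adjusted p = 5.91e-06). PRR34-AS1 (chr22:46053846-46058522), a lncRNA gene that overlaps PRR34 on the other strand, had 34, 25 and 25 counts against 3, 2 and 1. Pooled over the libraries this is a ratio of 8.29 (95% exact interval 3.65 to 23.2, counting error only), with 19.5 ± 2.88 against 2.35 ± 1.11 CPM (edgeR adjusted p = 4.19e-06). On day 28 the difference was 1.83 on the log2 scale (SE 0.35, edgeR adjusted p = 0.000347). PRR34 itself, which shares the locus, had 27, 15 and 13 against 10, 9 and 9 counts and was not called (log2 difference 0.22, SE 0.34, edgeR adjusted p = 0.84). AL121672.1, a gene without a RefSeq match that was picked out after its values were seen, had 19, 17 and 15 counts against 0, 1 and 1, a pooled ratio of 15.1 (95% exact interval 3.97 to 128).

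PPP1R15A on chromosome 19 encodes GADD34, the phosphatase subunit that restarts translation after the integrated stress response. It had 70, 50 and 56 counts against 12, 20 and 12, which is 40.7 ± 5.15 against 17.5 ± 6.78 CPM (log2 difference 1.24, SE 0.24, edgeR adjusted p = 0.000372). AF4-MLL cells were in between, at 32.1 ± 0.974 CPM, and the day 28 means of co-expression and MLL-AF4 cells were 19.9 and 19.8 CPM. MALAT1, a lncRNA of nuclear speckles, had 95, 65 and 79 counts against 25, 24 and 25 (log2 difference 0.93, SE 0.19, edgeR adjusted p = 0.00112) and likewise no difference on day 28 (log2 −0.03, SE 0.16). Its antisense gene TALAM1 shares the locus. The remaining 8 of the 12 leading higher genes lay on chromosome 15 and are described with that chromosome.

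Of the 12 leading lower genes, 7 lay outside chromosome 1. PRDM9 on chromosome 5, the zinc finger histone methyltransferase that places meiotic recombination sites, had the highest level among them. Its counts were 165, 168 and 161 in the co-expression libraries and 180, 159 and 145 in the smaller MLL-AF4 libraries, or 115 ± 8.84 against 190 ± 19.4 CPM (log2 difference −0.72, SE 0.11, edgeR adjusted p = 4.19e-06). AF4-MLL cells, at 127 ± 7.38 CPM, lay near the co-expression cells, so the MLL-AF4 libraries were the high ones. RUNX1T1 on chromosome 8, which encodes the transcriptional corepressor ETO, had 21, 8 and 14 against 38, 22 and 19 counts, and 9.84 ± 4.02 against 30.8 ± 10.5 CPM (log2 difference −1.62, SE 0.27, edgeR adjusted p = 3.12e-05). Here AF4-MLL cells, at 25.2 ± 0.970 CPM, lay with the MLL-AF4 cells, and the day 28 difference was as large (log2 −1.40, SE 0.25, edgeR adjusted p = 8.97e-05). HDHD5 on chromosome 22, which overlaps its antisense gene, had 21, 17 and 21 against 34, 29 and 28 counts (log2 difference −1.38, SE 0.24, edgeR adjusted p = 8.93e-05) and was also lower on day 28 (log2 −0.78, edgeR adjusted p = 0.0213). TMEFF2 on chromosome 2, a transmembrane protein with follistatin-like domains, had 39, 23 and 30 against 41, 36 and 41 counts (log2 difference −1.11, SE 0.21, edgeR adjusted p = 0.000191).

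COQ6 on chromosome 14, an enzyme of coenzyme Q synthesis that overlaps ENTPD5 and FAM161B, had a log2 difference of −0.77 (SE 0.15, edgeR adjusted p = 0.000523). SPOCK3 on chromosome 4, a proteoglycan of the extracellular matrix, had 17, 17 and 19 against 27, 25 and 26 counts (log2 difference −1.31, SE 0.26, edgeR adjusted p = 0.000675), and 17.5 against 16.3 CPM on day 28. Some lower genes had nearly no counts in co-expression cells, and 3 of these were picked out after their values were seen. LINC01324, a lncRNA gene on chromosome 3, had 0 counts in all 3 co-expression libraries and 8, 4 and 6 in the MLL-AF4 libraries, which makes it at least 10.1-fold lower against a floor of 3 counts over the group. LYPD1, which dampens nicotinic receptors, had 2, 2 and 3 counts against 10, 5 and 11 (pooled ratio 0.160, 95% exact interval 0.0584 to 0.377), and LRRTM1, a synaptic adhesion protein whose gene lies within CTNNA2, had 1, 2 and 3 against 6, 7 and 12 (pooled ratio 0.142, 95% exact interval 0.0477 to 0.355). LYPD1 was also lower on day 28 (log2 −2.29, SE 0.53, edgeR adjusted p = 0.00623). All of these genes have low counts, so their fold differences are imprecise.

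Many of the called genes were neighbours on a chromosome. The tested genes with a place on a chromosome (15457) were cut into 620 blocks of about 25 neighbours, and 56 blocks had a median log2 difference of at least 0.25 while 60 had one of −0.25 or less. At least 3 such blocks in a row made a run, a rule chosen after the data were seen, and 10 runs were found. The runs of higher blocks held 4.37% of the placed genes and 68 of the 146 placed higher calls (46.6%). The runs of lower blocks held 3.24% of the genes and 40 of the 140 placed lower calls (28.6%). As these day 3 differences chose the runs, their medians and their shares of the calls are a description without a test. Higher calls gather in higher runs, and lower calls in lower runs, in part by construction. The day 28 libraries had no part in the choice.

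The largest run took up the first part of chromosome 15, from HERC2P2 to DIS3L (chr15:22494837-66333898). It had 275 tested genes, of which 260 (94.5%) were above 0 on the log2 scale, 47 were called higher and 0 lower, with a median of 0.66 and quartiles of 0.38 and 0.93. The other 274 tested genes of the chromosome had a median of 0.09, with 2 called higher and 1 lower. MAP1A, a microtubule-associated protein of neurons, had 55, 49 and 61 counts against 15, 11 and 15 (38.3 ± 2.93 CPM in co-expression cells, log2 difference 1.25, SE 0.24, edgeR adjusted p = 0.000327). TUBGCP4, a subunit of the gamma-tubulin ring complex that overlaps TP53BP1, had 46, 30 and 37 against 6, 9 and 9 counts (log2 difference 1.47, SE 0.31, edgeR adjusted p = 0.00128). KNL1, the kinetochore scaffold, had 31, 47 and 42 against 9, 11 and 7 counts (log2 difference 1.39, SE 0.29, edgeR adjusted p = 0.00129). The called genes KNSTRN, OIP5 and NUSAP1, which act at the spindle or centromere, were higher by 1.48, 1.28 and 0.97.

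Called genes of other functions lay beside them. DUT, which clears dUTP before replication, had 70, 57 and 62 against 17, 18 and 20 counts (log2 difference 1.02, SE 0.22, edgeR adjusted p = 0.00145). RPS27L, a ribosomal protein paralogue induced by p53, had 71, 71 and 62 against 22, 16 and 20 counts (log2 difference 1.06, SE 0.21, edgeR adjusted p = 0.000699). CCPG1, a receptor for autophagy of the endoplasmic reticulum (ER), had 69, 74 and 75 against 23, 18 and 23 counts, in part perhaps shared with the overlapping PIGB and DNAAF4-CCPG1 (log2 difference 1.01, SE 0.20, edgeR adjusted p = 0.000754). RPAP1, an RNA polymerase II partner (log2 difference 1.26), GALK2, a sugar kinase (log2 difference 0.85), and GABPB1-IT1, a lncRNA within GABPB1 (log2 difference 0.99), completed the leading genes. The metalloprotease gene ADAM10, the tight junction gene TJP1 and the ubiquitin ligase gene UBR1 were called higher too, by 0.84, 0.93 and 1.47. The genes at the edges of the run had log2 differences of 0.17 at HERC2P2 and 0.03 at DIS3L. On day 28 MAP1A, KNL1, OIP5, NUSAP1, RPS27L, CCPG1, GABPB1-IT1 and TJP1 were called higher again, while TUBGCP4 and RPAP1, with log2 differences of 0.28 and 0.51, were not.

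The share of nuclear counts on this stretch separated the co-expression cells from all other groups. It was 1.61% ± 0.037 (SD, n = 3) in co-expression cells against 1.02% ± 0.026 in MLL-AF4 cells and 1.11% ± 0.024 in AF4-MLL cells on day 3. On day 28 it was 1.60% ± 0.0043 against 1.11% ± 0.014 and 1.07% ± 0.0051. The 3 co-expression libraries of day 28 lay above all 3 MLL-AF4 libraries (exact permutation p = 0.1, the smallest 3 against 3 can give), and the median log2 difference of the genes was then 0.55. The stretch thus still set the co-expression cells apart on day 28. Whether the number of DNA copies of the stretch differed between the groups was not tested.

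Lower runs were found at the end of chromosome 1 and at the start of chromosome 17. On chromosome 1 there were 3, from ABL2 to RBBP5 (chr1:179099330-205121978), from YOD1 to SUSD4 (chr1:207043849-223365235) and one that began at HIST3H2BB. They had 125, 72 and 72 tested genes with medians of −0.42, −0.41 and −0.51, and held 11, 2 and 14 lower calls and 0 higher. DESI2, a deubiquitinating and desumoylating peptidase, and ADSS, an enzyme of AMP synthesis, lie near the end of the chromosome, outside the runs. DESI2 had 124, 55 and 133 counts against 121, 95 and 121, which on scaled libraries is 71.5 ± 26.7 against 132 ± 10.1 CPM, with replicate 2 of the co-expression cells well below the others (log2 difference −0.87, SE 0.13, edgeR adjusted p = 4.19e-06). ADSS had 45.8 ± 1.16 against 83.0 ± 13.5 CPM (log2 difference −0.87, SE 0.15, edgeR adjusted p = 0.000107). Within the last run, RGS7, a regulator of G protein signalling in neurons, had 15, 12 and 17 against 28, 17 and 29 counts (log2 difference −1.50, SE 0.28, edgeR adjusted p = 0.00016), and RYR2, the cardiac calcium release channel, 34, 28 and 24 against 31, 39 and 42 (log2 difference −1.13, SE 0.21, edgeR adjusted p = 0.000214).

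On chromosome 17 the runs from DOC2B to CTDNEP1 and from WRAP53 to MAP2K3 lay within chr17:142789-21315240. They had 104 and 128 tested genes, medians of −0.38 and −0.33 and 2 and 11 lower calls. KDM6B, the histone H3 lysine 27 demethylase, had 30, 27 and 36 against 37, 30 and 33 counts (log2 difference −0.86, SE 0.21, edgeR adjusted p = 0.0115), and the repeated small nucleolar RNA genes SNORD3A and SNORD3B-1, whose copies share reads, were lower by 0.46 and 0.65. The share of nuclear counts on the first of these runs was 0.431% ± 0.0061 in co-expression cells, 0.545% ± 0.0033 in MLL-AF4 cells and 0.643% ± 0.012 in AF4-MLL cells. On day 28 the co-expression cells were still lowest, at 0.444% ± 0.012 against 0.664% ± 0.0054 and 0.616% ± 0.020. The first run of chromosome 1 was at 0.702% ± 0.0049 against 0.921% ± 0.021 in MLL-AF4 cells on day 3 and at 0.701% ± 0.0087 against 0.809% ± 0.0063 on day 28. In each of the 5 lower runs the 3 co-expression libraries of day 28 lay below all 3 MLL-AF4 libraries (exact permutation p = 0.1 for each).

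**Figure D2:**
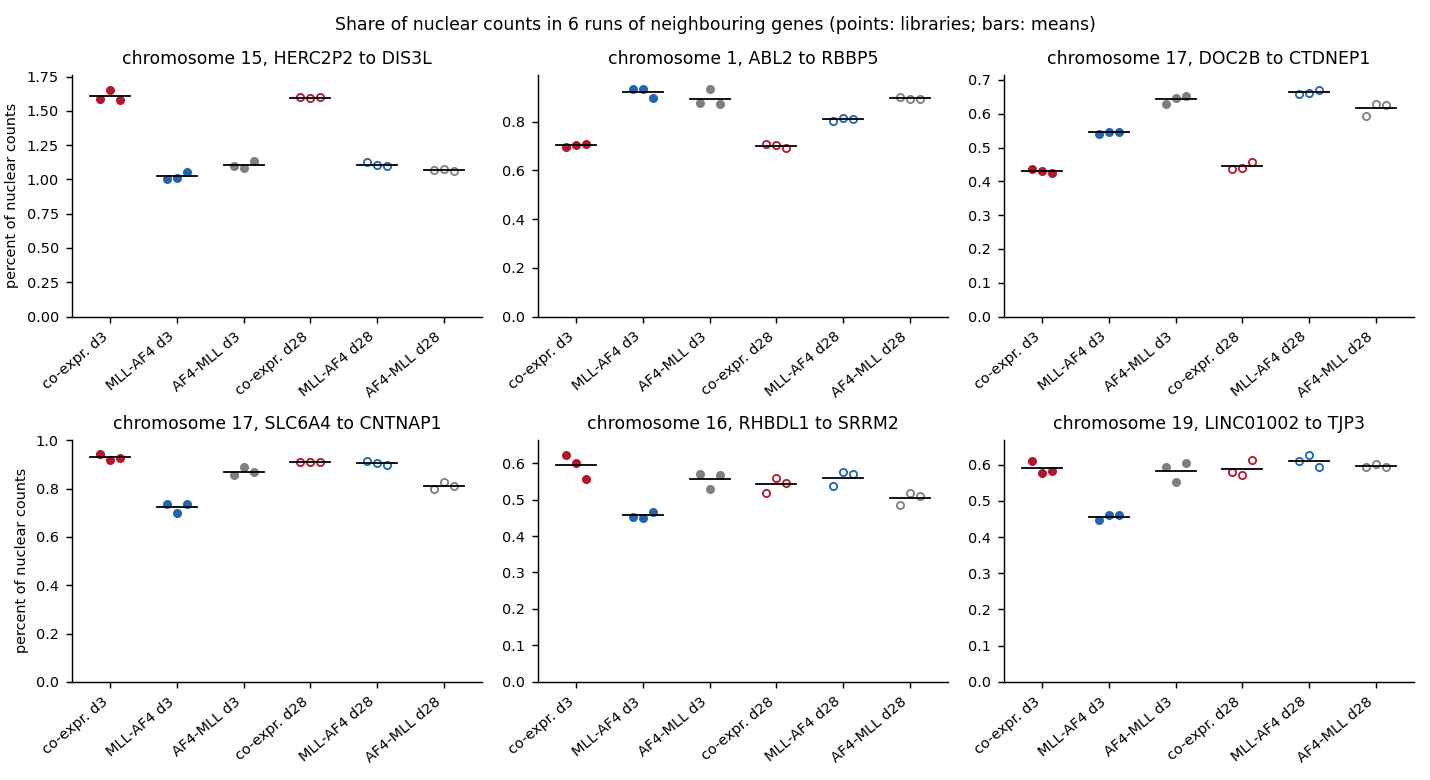
Percent of nuclear counts that fell on 6 of the runs of neighbouring genes, for the 3 constructs on day 3 (filled points) and day 28 (open points); points are libraries and bars are means (n = 3), on linear axes from 0. In the runs of chromosome 15 (1.61% and 1.60%), chromosome 1 and the start of chromosome 17 the co-expression cells stand apart on both days, while in the other 3 the MLL-AF4 libraries of day 3 are lowest, as on chromosome 19 (0.456% against 0.584% to 0.611% in the other groups).

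The remaining 4 runs, all higher, had another pattern across the groups. They lay near the start of chromosome 16 (RHBDL1 to SRRM2, 78 genes, median 0.31, 8 higher calls), in the middle of chromosome 17 (SLC6A4 to CNTNAP1, 150 genes, median 0.34, 6 higher calls) and at the start and near the end of chromosome 19 (LINC01002 to TJP3, 100 genes, median 0.37, 6 higher calls, and EHD2 to MED25, 72 genes, median 0.30, 1 higher call). Their median differences on day 28 were −0.02, −0.04, −0.06 and −0.01. AF4-MLL cells differed from MLL-AF4 cells on day 3 by medians of 0.30, 0.28, 0.36 and 0.23 in the same runs, with the same MLL-AF4 libraries on one side of both comparisons. In the run of chromosome 16 the MLL-AF4 cells of day 3 had 0.456% ± 0.0091 of nuclear counts and the other 5 groups 0.504% to 0.594% on average. The call in the last of them was PPP1R15A. RNPS1, a splicing activator in the run of chromosome 16, had 74, 71 and 55 against 21, 19 and 20 counts (log2 difference 0.98, SE 0.21, edgeR adjusted p = 0.00229).

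Whole chromosomes were compared next. Of 23 chromosomes, 18 (78.3%) took a different share of the nuclear counts by limma at an adjusted p-value under 0.05, 6 higher and 12 lower. The shares of a library have a fixed total, so a rise on some chromosomes lowers the others and the calls are not independent. The count of 18 leaves out nuclear copies of mitochondrial genes, a choice made after seeing the data, and with them it was 11, 6 higher and 5 lower. Chromosome 15 differed most, at 3.87% ± 0.039 against 3.10% ± 0.058 (log2 difference 0.32, SE 0.012, limma adjusted p = 1.18e-17), and held 49 of the higher calls and 1 lower. Chromosome 19 was at 5.95% ± 0.075 against 5.11% ± 0.054 (log2 0.22), chromosome 16 at 4.84% ± 0.10 against 4.33% ± 0.051 (log2 0.16) and chromosome 22 at 2.61% ± 0.051 against 2.34% ± 0.049 (log2 0.16). Chromosome 4, at 3.67% ± 0.027 against 4.11% ± 0.021 (log2 −0.16, SE 0.012), and chromosome 18 (log2 −0.13) were the lowest. Chromosome 4 had 9 lower calls and 0 higher. The higher chromosomes were 15, 16, 17, 19, 20 and 22, of which 16, 17, 19 and 22 are known to be rich in genes. On day 28 the difference of chromosome 15 was 0.29, whereas those of chromosomes 16, 17, 19, 20 and 22 were −0.02, −0.14, −0.04, −0.05 and −0.11.

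**Figure D3:**
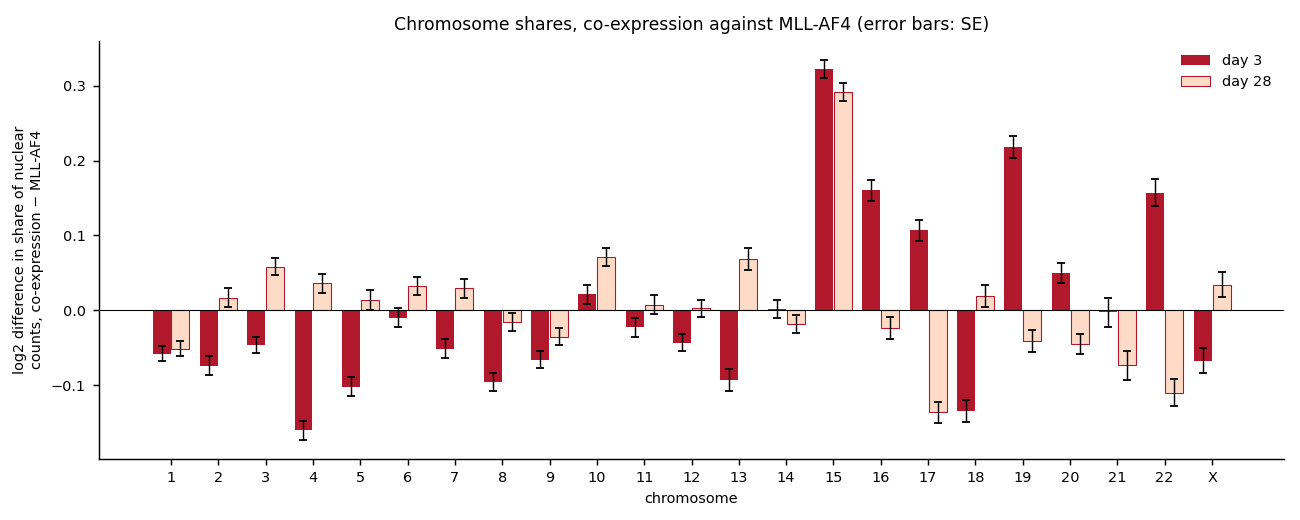
Log2 difference in each chromosome's share of nuclear counts, co-expression minus MLL-AF4, on day 3 (dark) and day 28 (light), with bars of the standard error from limma (3 libraries per group). Chromosome 15 is higher by 0.32 and 0.29 on the 2 days, and chromosomes 16, 17, 19, 20 and 22 are above 0 on day 3 and below 0 on day 28.

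A gene's difference from its own neighbourhood was measured by scaling each library to its count over the 50 tested genes on each side of the gene, an alternative added after seeing the data. Of 15478 genes so tested, 39 were then called, 15 higher and 24 lower, and 31 of these were among the 319. PRR34-AS1, MIRLET7BHG, PPP1R15A and HCFC1 stayed higher, and RUNX1T1, HDHD5, PRDM9, COQ6, TMEFF2, SPOCK3, CRELD2, LINC01324, LYPD1 and LRRTM1 stayed lower. None of the leading genes of chromosome 15, and neither DESI2 nor ADSS, passed in that fit. Scaling to the count of the whole chromosome kept 106 of the 319 calls.

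Genes of the MLL complexes and of methylation of lysine 4 of histone H3 (19 tested) had 1 call, where 1.81% of all genes tested were called. Their median was 0.13, beside −0.002 for all genes tested, and 14 members (73.7%) were above 0, beside 49.7% of all genes tested. HCFC1, the chromatin adaptor of these complexes on the X chromosome, was higher, with 125, 124 and 152 against 55, 49 and 48 counts and 93.2 ± 10.3 against 59.7 ± 3.65 CPM (log2 difference 0.64, SE 0.15, edgeR adjusted p = 0.00408). On day 28 its counts were 152, 125 and 56 against 74, 135 and 81, with overlapping groups. Those libraries held 376209 to 1116385 and 554344 to 900905 nuclear counts. Among 22 genes of the super elongation complex, P-TEFb and DOT1L, 1 was higher, 1 lower and the median was 0.09. Of all genes tested, 0.900% were called higher and 0.906% lower. HEXIM2, an inhibitor of P-TEFb in the 7SK complex that overlaps its antisense genes on chromosome 17, had 47, 37 and 45 against 9, 14 and 14 counts (log2 difference 1.04, SE 0.26, edgeR adjusted p = 0.0131). ELL2, an elongation factor of the complex that overlaps CAST on chromosome 5, had 50, 47 and 66 against 63, 52 and 48 counts (log2 difference −0.75, SE 0.17, edgeR adjusted p = 0.00376). Both had no clear difference on day 28 (log2 0.06 and 0.13). The HEXIM2 call was lost with scaling to the neighbourhood or to the whole chromosome. That of ELL2 was lost with scaling to the neighbourhood or with library size as the only scaling.

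Known targets of MLL fusions showed 0 calls among 21 tested, with 4 at an unadjusted p-value under 0.05 in edgeR (14.5% of all genes tested) and a median of −0.08, which turned to 0.04 with library size as the only scaling. CPEB2, a translational regulator, came closest at 25.3 ± 5.66 against 40.8 ± 9.86 CPM (log2 difference −0.66, SE 0.21, edgeR adjusted p = 0.0755), followed by ZNF521, a zinc finger cofactor of progenitor cells (log2 difference −0.47, SE 0.20, edgeR adjusted p = 0.219). The HOX clusters, to which the MLL target genes HOXA9 and HOXA10 belong, had 35 tested genes, 0 calls, 4 at an unadjusted p-value under 0.05 and a median of 0.05. HOXB13 and HOXB9 had the smallest p-values, with log2 differences of 0.81 (SE 0.28) and 0.65 (SE 0.23). In the PRDM family (15 tested) only PRDM9 was called, and among 321 zinc finger genes ZNF609 and ZNF740 were higher (log2 difference 1.51 and 0.85) and ZNF217 lower (log2 difference −1.29). Of all genes tested, 0.900% were called higher and 0.906% lower. ZNF609 lies in the run on chromosome 15. The ZNF217 call was lost with library size only, with the loess offset and with scaling to the neighbourhood or the whole chromosome.

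Stress response genes did not move together. Of all genes tested, 0.900% were called higher and 0.906% lower, and 14.5% had an unadjusted p-value under 0.05 in edgeR. The counts in the lists below stand beside these shares. Of 20 genes of ER chaperones and the unfolded protein response, 2 were higher, 1 was lower and 17 were not called, with a median of 0.11. HSPA5, the main ER chaperone (BiP) on chromosome 9, had 180, 133 and 166 against 75, 76 and 57 counts, or 111 ± 10.6 against 82.0 ± 15.3 CPM (log2 difference 0.44, SE 0.13, edgeR adjusted p = 0.0479). This call is marginal and was lost in 13 of the 20 alternatives, with replicate 1 or 3 of either group left out among them. AF4-MLL cells had 112 ± 4.57 CPM of it. CRELD2, a secreted ER protein on chromosome 22, had 38, 22 and 39 against 44, 35 and 39 counts, or 22.8 ± 5.57 against 46.2 ± 2.54 CPM (log2 difference −1.01, SE 0.21, edgeR adjusted p = 0.000965). Its block, FBLN1 to MLC1, had a median log2 difference of 0.13 on day 3 and −0.23 on day 28. The next and last block of the chromosome, MOV10L1 to RABL2B, had medians of −0.47 and −0.73. Whether the difference of CRELD2 is separate from that of the last block was not tested. PDIA3, an ER disulfide isomerase, was higher by 1.36 (SE 0.38) and lies in the run on chromosome 15. In the ATF4 list of the integrated stress response PPP1R15A was the 1 call among 19 genes, with a median of −0.01. The heat shock list had 0 calls among 18 genes and 3 at an unadjusted p-value under 0.05, led by HSPA1B (log2 difference 0.61, SE 0.19, edgeR adjusted p = 0.0655) and CACYBP (log2 difference −0.36, SE 0.12, edgeR adjusted p = 0.0916). Of 20 AP-1 and immediate early genes, DUSP2, a phosphatase of MAP kinases, was lower, with 10, 5 and 3 against 11, 10 and 10 counts (log2 difference −1.52, SE 0.44, edgeR adjusted p = 0.0387). Its counts are low, and the call was lost with library size only, with the loess offset and with scaling to the neighbourhood or the whole chromosome.

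The promoters of HSPA5 and CRELD2, which differed in opposite directions, both hold the ER stress response element, a pair of half-sites known to bind NF-Y and ATF6. The element was searched as CCAAT and CCACG with 9 bases of any kind between them, on both strands, and 27 of 35116 RefSeq promoters (0.077%) hold it. PPP1R15A holds a cyclic AMP response element, TGACGTCA, as 1.85% of promoters do. The windows run from 250 bases before to 50 after the start (GRCh38.p14), 5′ to 3′ on the strand of the gene, with the element in capitals. They are shown for what the counted genes carry at their starts, and a match is not evidence of binding.
HSPA5, chr9:125241294-125241593, minus strand: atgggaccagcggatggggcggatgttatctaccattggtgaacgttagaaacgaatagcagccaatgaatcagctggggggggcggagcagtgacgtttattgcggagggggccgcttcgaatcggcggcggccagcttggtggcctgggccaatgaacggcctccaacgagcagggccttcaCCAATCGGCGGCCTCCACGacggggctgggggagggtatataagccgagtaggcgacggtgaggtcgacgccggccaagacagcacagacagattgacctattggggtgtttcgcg
CRELD2, chr22:49918384-49918683, plus strand: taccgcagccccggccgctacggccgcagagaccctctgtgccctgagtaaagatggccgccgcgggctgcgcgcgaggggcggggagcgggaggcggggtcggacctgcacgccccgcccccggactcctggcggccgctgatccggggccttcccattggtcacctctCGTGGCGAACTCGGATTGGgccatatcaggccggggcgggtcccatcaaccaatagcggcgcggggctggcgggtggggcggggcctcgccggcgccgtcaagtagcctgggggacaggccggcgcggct
PPP1R15A, chr19:48872171-48872470, plus strand: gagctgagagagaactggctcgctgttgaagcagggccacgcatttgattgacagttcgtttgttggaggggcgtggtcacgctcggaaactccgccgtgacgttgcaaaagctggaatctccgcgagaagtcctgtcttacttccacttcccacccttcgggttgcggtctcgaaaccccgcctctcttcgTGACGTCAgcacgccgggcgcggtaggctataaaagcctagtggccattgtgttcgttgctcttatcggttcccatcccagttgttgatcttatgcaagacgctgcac
The CCAAT half-site alone, which is part of the first element, occurs in 34.6% of promoters.

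Ribosomal protein genes had the highest median of all lists. Of 85 cytosolic ribosomal protein genes 71 (83.5%) were above 0, the median was 0.30 and 5 were called higher and 0 lower (RPS27L, RPS19, RPL39, RPL13 and RPL36), where 49.7% of all genes tested were above 0 and 0.900% were called higher. The 5 calls became 2 with the per-chromosome offset and 1 with the neighbourhood offset. The median lay between 0.25 and 0.44 under all 7 other scalings, but on day 28 it was 0.08 and in AF4-MLL against MLL-AF4 cells −0.01. RPL39, of the large subunit, had 37, 38 and 31 against 11, 8 and 7 counts (log2 difference 1.27, SE 0.30, edgeR adjusted p = 0.00757), and RPS19, of the small subunit, 77, 74 and 88 against 24, 26 and 30 (log2 difference 0.82, SE 0.19, edgeR adjusted p = 0.00469). Many ribosomal protein genes have processed copies that may share reads. The copies of the ribosomal RNA repeat, which share reads among themselves, had 4 higher calls among 16, led by FP236383.3 with 480, 438 and 320 against 174, 129 and 120 counts (log2 difference 0.80, SE 0.13, edgeR adjusted p = 4.19e-06). Replication-dependent histone genes (48 tested) had a median of 0.25 and 2 higher calls, HIST2H4A (log2 difference 0.76, SE 0.19) and HIST2H2AA4 (log2 difference 0.91, SE 0.26), which have near-identical copies. Both calls were lost with the neighbourhood offset, where the median of the list was 0.16.

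Other lists gave 0 calls in edgeR, and their counts at an unadjusted p-value under 0.05 stand beside 14.5% of all genes tested. These were the cell cycle and replication genes (26 tested, median −0.10, 2 at an unadjusted p-value under 0.05), the p53 targets (20 tested, median 0.05, 1), the interferon and nucleic acid sensing genes (16 tested, median −0.11, 3) and the cell adhesion genes (22 tested, median −0.21, 2). The medians of the cell cycle and interferon lists turned to 0.04 and 0.02 with library size as the only scaling. MCM7 of the replicative helicase had a log2 difference of 0.44 (SE 0.15) and MCM5 one of 0.47 (SE 0.21), the nuclease gene AEN and the AKT inhibitor gene PHLDA3 of the p53 list 0.60 (SE 0.30) and −0.50 (SE 0.26), and the antiviral genes MX1 and TMEM173 −1.45 (SE 0.46) and −1.39 (SE 0.54). Of the 22 adhesion genes 5 were above 0 (22.7%, beside 49.7% of all genes tested), and 9 with library size as the only scaling, where the median was −0.09. Among them were FN1, which encodes fibronectin, at 22, 19 and 37 against 30, 25 and 22 counts (log2 difference −0.73, SE 0.24, edgeR adjusted p = 0.0884), and NCAM2 at −1.35 (SE 0.49). Of 36 tested genes of the mitochondrial genome, 35 were below 0 with a median of −0.26, which shrank to −0.04 with the loess offset. Nuclear copies of mitochondrial genes (21 tested, median −0.27, 3 at an unadjusted p-value under 0.05), olfactory receptor genes (9 tested, 1) and clustered protocadherin genes (3 tested, 0) also had 0 calls.

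Gene length went with the differences in a graded way. The 12176 genes with a RefSeq promoter were split by length into 5 equal sets. From the shortest to the longest set the median log2 difference was 0.09, 0.04, 0.02, −0.04 and −0.11. On day 28 the corresponding medians were 0.02, 0.03, 0.01, 0.01 and −0.01. Higher calls had a median gene length of 15.01 kb, lower calls 36.6 kb and all of these genes 31.9 kb. The median GC content of the promoter was 65.0%, 65.2% and 65.0% in the same sets, which were not tested against each other. Of 5 sets by GC content, the lowest held 21 higher and 31 lower calls and the highest 14 and 30. Of 5 sets by mean count, the lowest had a median log2 difference of −0.10 with 1 higher and 24 lower calls. The highest had a median of 0.01 with 44 and 38. Whether length and count level go with the differences separately was not tested.

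Whether the day 3 calls were present in the day 28 libraries was read from the same 319 genes. Of the 159 higher genes 112 were above 0 on day 28 and 20 were called higher, and of the 160 lower genes 129 were below 0 and 17 were called lower, where 0.413% and 0.753% of all genes (1.17% together) were called so. None was called in the opposite direction. Their median log2 differences were 0.17 and −0.24 on day 28, against 0.93 and −0.97 on day 3. As the genes were chosen by their day 3 values, some shrinkage towards day 28 is built into these medians. The change of the difference between the days was itself called in 41 genes (0.232%), of which 21 were among the 319, and in all 41 the 2 days had opposite signs. SETMAR, a histone methyltransferase fused to a transposase that overlaps SUMF1, went from −1.28 to 0.56 (edgeR adjusted p of the change 0.00283), and PRR7-AS1, a lncRNA gene, from 2.02 to −0.34 (edgeR adjusted p of the change 0.0166). The widely expressed genes ACTB (from 0.64 to −0.32) and EEF2 (from 0.81 to −0.23) did likewise.

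For its first ATAC-seq experiment the study selected genes by more than 2 reads, a p-value under 0.05 and a log2 difference beyond 1 or beyond 2 in either direction. The libraries here have the groups of its second experiment, for which its main text states no thresholds. The counts below therefore have no counterpart in the study. The reads were taken here as the mean count of the 6 libraries and the p-value as unadjusted, which the sources used here do not specify. With the limit of 1, 490 genes (2.77%) passed in the edgeR fit, 208 higher (1.18%) and 282 lower (1.60%). With the limit of 2, 20 genes passed.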

How the data were processed

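ATAC-seq fragments were counted per gene in 18 libraries, 3 in each of 6 groups. Per the labels, the authors' processing used bcl2fastq, Bowtie2 and HTSeq on build GRCh38, and they deposited 1 table of raw counts for 54425 gene entries, whole numbers with no normalisation. The versions, the feature counted and the treatment of duplicate reads are not given in the sources used here. Duplicates and reads shared by overlapping genes would change counts, and the assay carries no strand, so a gene and its antisense partner cannot be told apart. Of the entries, 116 merge several identifiers of 1 symbol. RefSeq (GRCh38.p14) gave type and place for 15480 of the genes tested (87.7%).

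All 18 libraries were fitted together in R 4.3.3 with edgeR 4.0.16, with 6 groups, TMM scaling, quasi-likelihood F tests and filterByExpr at its defaults (10 counts, 15 in total), and genes were called at a Benjamini-Hochberg adjusted p-value under 0.05. The biological coefficient of variation was 7.48%, and the median over tested genes and the 6 libraries was 18 counts, so small differences in single genes were not detectable at this depth. The pipeline was tested on simulated data. For chromosome shares, limma 3.58.1 was run on log2 values, leaving out nuclear copies of mitochondrial genes, a choice made after seeing the data. DESeq2 1.42.0 was an alternative. Intervals and floors cover counting error only, and the study's methods call the 3 replicates biological, while the labels do not name separate cultures, so p-values measure the spread between these libraries. Replicates of a group differed by more than sampling noise in every pair, so none was merged. The excess was small in MLL-AF4 pairs (chi-squared per degree of freedom 1.064 to 1.109). It was larger in co-expression pairs (1.339 to 1.459).

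The members and gene lists were chosen with earlier results of these data known. Genes were named by rule: KMT2A, AFF1 and MIF, the 12 higher and 12 lower calls with the smallest adjusted p-value among genes averaging 10 or more counts, with no overlap between the groups and a protein-coding, lncRNA or microRNA type, up to 4 called members of each list or, with none called, the 2 with the smallest p-value, and the first, last and called genes of each run. Genes said to be picked out, genes named for a change between the days, and PRR34 were chosen after their values were seen. Some items that the rule would name are not reported here.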

Additional observations from a re-analysis of the deposited data

Results flagged for a closer look

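The difference between co-expression and MLL-AF4 cells changed from day 3 to day 28 in 41 genes by edgeR's interaction test. Negative values below mean that the log2 difference was smaller on day 28. Among named genes the change was −1.06 in FP236383.3, −1.15 in FP671120.4, −0.88 in FP671120.3 and −0.77 in FP236383.2, copies of the ribosomal RNA repeat that share reads and are not independent. It was −2.36 in PRR7-AS1, −1.53 in TOMM22, −1.25 in SRSF3, −1.23 in RNPS1, −1.10 in RPS19, −1.05 in EEF2 and −0.97 in ACTB, and in the other direction 1.84 in SETMAR and 0.98 in GLRX2. In FP236383.3 the MLL-AF4 cells went from 166 to 258 CPM and the co-expression cells from 288 to 211 CPM.

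The change of the difference in chromosome share was called by limma for 18 of 23 chromosomes. It was −0.27 on chromosome 22, −0.26 on chromosome 19, −0.24 on chromosome 17, −0.18 on chromosome 16, −0.10 on chromosome 20 and −0.071 on chromosome 21. The chromosomes that moved up were 4 (0.20), 13 (0.16), 18 (0.15), 5 (0.12), 3 (0.10), X (0.10), 2 (0.091), 7 (0.081), 8 (0.081), 10 (0.051), 12 (0.046) and 6 (0.042). Chromosome 15 was not among them (−0.03, limma adjusted p = 0.097). On chromosome 19 the share in MLL-AF4 cells was 5.11% on day 3 and 6.20% on day 28, and in co-expression cells 5.95% and 6.03%.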

How the results depend on the processing

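The count of genes called on day 3 (319) ran from 113 to 272 when 1 library was left out, lowest without replicate 1 of the MLL-AF4 cells. It was 77 with DESeq2's Wald test (8217 genes had no adjusted p-value), all of them among the 319, 133 with the per-chromosome offset and 39 with the neighbourhood offset. Without the filter on low counts it was 265, split into 223 higher and 42 lower. With the replicate block it was 299, and the replicate numbers did not pair the samples (correlations of deviations −0.0179, −0.011 and 0.0159), so the block has no place in the design. The count past the study's thresholds (490) was 20 at a log2 threshold of 2 and 611 to 747 with 1 library left out, highest when co-expression replicate 1 was dropped. The 206 calls of day 28 became 23 with DESeq2 and 100 with library size only, and with the replicate block 182. For the change between the days the 41 calls became 17 with DESeq2 and 32 with the replicate block. Counting nuclear copies of mitochondrial genes on their chromosome, an alternative chosen after seeing the data, lowered the called chromosomes from 18 to 11, and the replicate block left 18. The mitochondrial share difference ran from −6.89 to −1.20 points with 1 library left out. No named gene turned its direction with a call under these alternatives. The causes of these movements were not tested. Depth limits the low genes named here, whose folds carry wide counting intervals.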
